A study of Homo sapiens with 16 samples.

Results

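The 10 noncoding RNA genes GAS5, SNHG1, SNHG5, SNHG6, SNHG8, SNHG12, SNHG15, SNHG16, ZFAS1 and EPB41L4A-AS1 were followed through RNA-seq of PC3 and HeyA8 cancer cells. They were chosen by name as snoRNA host genes whose spliced RNAs are known to respond to translation, and all 10 were found among the 26485 genes counted. None was left out by the filter on low counts in any fit. On hg38 SNHG1 lies at chr11:62851988-62855888, SNHG12 at chr1:28578538-28581854 and SNHG15 at chr7:44983028-44986660, all on the minus strand. ZFAS1 lies at chr20:49278178-49289258 and EPB41L4A-AS1 at chr5:112160526-112162501 on the plus strand.

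PC3 is a prostate cancer line and HeyA8 an ovarian cancer line, both labelled wild type. Each line was mock-treated or transfected, with the reagent RNAiMax, with siNT1, siGGGGGC or siCAG, and each of these conditions gave 1 library at 24 h and 1 at 48 h, 16 libraries in all. siNT1 is the nontoxic control siRNA. siGGGGGC carries GGGGGC as its 6mer seed, the 6 bases with which an siRNA recognises targets in the manner of a microRNA, so that GCCCCC in an RNA is its seed match. The sample titles and count columns call the siGGGGGC libraries siMxy, and the name siGGGGGC rests on the treatment label of each sample. siCAG is taken from the labels, since the study's text does not describe an siRNA of that name. The labels give an siRNA dose of 1 nM and the study's methods another dose. The libraries at 24 and 48 h were the 2 replicates of a condition, lysed from different wells per the study's methods. Separate experiments are not stated, so the p-values measure the spread between these libraries, time included. Every value comes from whole populations of cells, in which fewer cells with an RNA cannot be told apart from less RNA per cell.

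Between 27937092 and 29971612 reads were counted per library in PC3 cells (median 28520015) and between 29128446 and 31790209 in HeyA8 cells (median 30537650). Marker genes differed between the lines. The epithelial cadherin CDH1 had 232 to 1154 reads in the PC3 libraries and 0 to 3 in the HeyA8 libraries, and PAX8, a transcription factor of the Müllerian tract, had 44 to 192 and 1838 to 6680. The epithelial keratins KRT8 and KRT18 went the other way from CDH1, with 3590 to 7644 and 4839 to 9782 reads in PC3 and 8438 to 29072 and 8169 to 22895 in HeyA8 cells. The prostate gene KLK3, which PC3 cells are known to lack, and the T cell gene CD3E had 0 reads in all 16 libraries. The leukocyte gene PTPRC had at most 12 reads and the endothelial gene PECAM1 2 to 159, while the collagen gene COL1A1 had 689 to 1825 in PC3 and 98 to 1252 in HeyA8 cells. The HeyA8 libraries after siCAG stood apart, since 25.6% of 10659 genes differed by more than 2-fold between 24 and 48 h. In the other 7 conditions this share lay between 0.625% and 6.4%. For comparisons with these libraries, values without 1 of them or at each time point are given beside the fits.

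Small nucleolar RNAs (snoRNAs) guide the chemical modification of ribosomal RNA. Box C/D snoRNAs direct methylation of the ribose and box H/ACA snoRNAs direct pseudouridylation, and most human snoRNAs are cut out of the introns of a host gene. Many noncoding hosts start with a pyrimidine tract of the kind found at the 5′ ends of ribosomal protein mRNAs (5′ TOP), which ties translation to cell growth. Their spliced RNAs hold short reading frames with early stop codons, and ribosomes that reach these stops expose them to nonsense-mediated decay (NMD). GAS5 was named for its accumulation in growth-arrested cells, in which translation is low.

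The first bases of 4 hosts are shown because the pyrimidine tract ties such hosts to translation. Each line gives 30 bases of hg38 around the start of the gene as the deposited table places it, from 10 bases before it, 5′ to 3′ on the gene's strand. Capitals mark a C followed by at least 4 pyrimidines that starts within 10 bases of the gene start.
GAS5: catactgtCTTTTCgaggtaggagtcgact
SNHG5: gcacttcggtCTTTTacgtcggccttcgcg
SNHG8: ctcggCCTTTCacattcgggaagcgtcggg
SNHG16: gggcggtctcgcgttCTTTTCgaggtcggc
These windows lie at chr1:173867968-173867997 on the minus strand for GAS5, chr6:85678714-85678743 on the minus strand for SNHG5, chr4:118278752-118278781 on the plus strand for SNHG8 and chr17:76557754-76557783 on the plus strand for SNHG16. Such a run was found near the start in 5 of the 10 hosts, the fifth being SNHG6. It was present in 31.2% of 25245 genes, in 45 of 71 ribosomal protein genes and in 5 of 11 other noncoding snoRNA hosts. The same window was searched, on the gene's strand only. In the other lists used below the share lay between 23.5% (snoRNA genes of the hosts) and 56.5% (5′ TOP coding genes outside the ribosome). It was 47.6% for coding genes with NMD-sensitive transcripts and 42.9% for snoRNP (snoRNA particle) proteins. The run starts at position -2 in GAS5, 1 in SNHG5, -5 in SNHG8 and 6 in SNHG16, where 1 is the gene's first base. The absence of the run in the other hosts says only that these letters were not in this window.

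The hosts were then read for GCCCCC, since siGGGGGC could pair with it. In the GENCODE v44 transcript whose length was closest to the deposited gene length, GCCCCC was found in SNHG12 and EPB41L4A-AS1 and in none of the other 8. Shown in capitals within 30 bases of the spliced RNA, these matches read as follows.
SNHG12: gagctccgaaagGCCCCCtcggcagtgaga
EPB41L4A-AS1: tatgcttgccctGCCCCCgtataaaataac
The SNHG12 match lies in exon 1 of 6 at chr1:28581674-28581679 on the minus strand, is the first of 2 in this transcript, and all 16 annotated transcripts hold the motif. The EPB41L4A-AS1 match lies in exon 1 of 2 at chr5:112161206-112161211 on the plus strand, and 4 of 7 transcripts hold it. SNHG15 held the motif in 3 of its 12 transcripts but not in the one used. The share of hosts with the motif, 20%, was near the 22.8% among 48718 noncoding transcripts of 460 to 3607 bases. The longest run of CTG repeats was 3 units in SNHG12 and at most 2 in the other hosts.

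**Figure D1:**
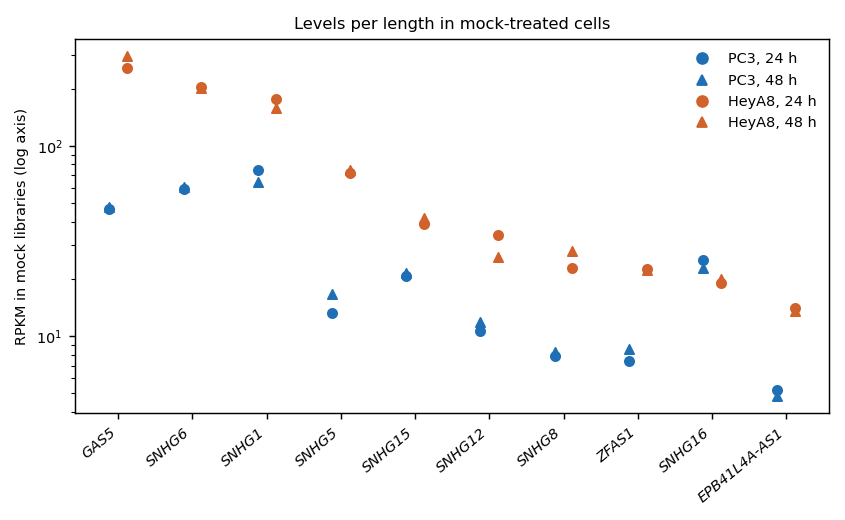
Levels of the 10 hosts in mock-treated PC3 (blue) and HeyA8 (orange) cells at 24 h (circles) and 48 h (triangles), in RPKM on a log axis, ordered by the mean in HeyA8 cells. The HeyA8 points lie above the PC3 points for every host except SNHG16.

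Without siRNA, 9 of the 10 hosts were less abundant in PC3 than in HeyA8 cells, by 2.22-fold (SNHG15) to 6.45-fold (SNHG5). Levels between genes are compared per length, as RPKM (reads per kilobase of deposited gene length, scaled to library size). GAS5, which carries 10 box C/D snoRNAs, had 46.8 and 47.6 RPKM in the PC3 mock libraries at 24 and 48 h, against 255.3 and 294.9 in HeyA8 cells. It was the most abundant host in HeyA8 cells, followed by SNHG6, the host of SNORD87, with 203.1 and 200.2 RPKM, and SNHG1, the host of 8 box C/D snoRNAs, with 175.5 and 157.3 RPKM. In PC3 cells SNHG1 had 74.65 and 64.46 RPKM and SNHG6 59.22 and 60.87.

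SNHG5, which carries SNORD50A and SNORD50B, had 13.25 and 16.63 RPKM in PC3 and 72.26 and 74.93 in HeyA8 cells. SNHG15, the host of SNORA9, had 20.63 and 21.51 RPKM in PC3 and 38.72 and 41.53 in HeyA8 cells. SNHG12, the host of SNORD99 and 3 box H/ACA snoRNAs, had 10.67 and 11.85 RPKM in PC3 and 33.95 and 26.19 in HeyA8 cells. All 3 were separated between the lines without overlap. EPB41L4A-AS1, the host of SNORA13, was lowest, with 5.19 and 4.85 RPKM in PC3 and 13.98 and 13.54 in HeyA8 cells. SNHG16, the host of SNORD1A to SNORD1C, had 25.27 and 22.81 RPKM in PC3 and 18.99 and 20.02 in HeyA8 cells. It was the one host whose PC3 mock libraries were both the higher ones. ZFAS1, the host of the SNORD12 genes, had 7.377 and 8.555 RPKM in PC3 and 22.48 and 22.13 in HeyA8 cells. SNHG8, the host of SNORA24, had 7.823 and 8.224 RPKM in PC3 and 22.74 and 28.05 in HeyA8 cells. With the deposited lengths the libraries of neighbouring hosts overlapped between ZFAS1 and SNHG8 in PC3 cells and between SNHG12 and SNHG8 in HeyA8 cells. The deposited lengths of SNHG8 (1361 bases) and SNHG16 (9946 bases) exceed the span of the genes on hg38 (1062 and 7585 bases), so their levels per length are underestimates. With the length of the GENCODE v44 transcript closest to the deposited one, SNHG16 (3607 bases) had 69.7 and 62.9 RPKM in PC3 cells, against 75.0 and 64.8 for SNHG1 and 60.8 and 62.5 for SNHG6, so that the libraries of SNHG16 overlapped those of SNHG1. ZFAS1, with 3997 deposited bases and 1075 in that transcript, then had 27.4 and 31.8 RPKM in PC3 and 83.6 and 82.3 in HeyA8 cells. The order of SNHG16 and ZFAS1 among the hosts therefore depends on the length used, while GAS5, SNHG6 and SNHG1 led in HeyA8 cells with both lengths.

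With edgeR's quasi-likelihood test over all 16 libraries, 9 of 10 hosts passed an adjusted p of 0.05 and all 9 were lower in PC3 cells, where 45.5% of 15887 genes passed in either direction and 19.9% were called lower. The log2 difference was -2.62 ± 0.30 (SE, 2 mock libraries a line) for GAS5, with an adjusted p of 4.62e-05, and -2.69 ± 0.35 for SNHG5, with an adjusted p of 0.000113. SNHG16 differed by 0.19 ± 0.27, with an adjusted p of 0.596, but it was called higher in a fit to the 4 mock libraries alone (0.28 ± 0.11, adjusted p 0.0191), in which 74.9% of genes were called. The median over the hosts was -1.76, against 0.089 over all genes tested. Ribosomal protein genes, 68 of 75 called lower and 1 higher, had a median of -1.44, and 5′ TOP coding genes outside the ribosome, 19 of 24 lower, had -1.23. Without the PC3 mock library at 24 h, 4 hosts were still called (GAS5, SNHG5, SNHG6 and ZFAS1), among 26.8% of genes.

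Transfection of siNT1 left the hosts close to mock. Their log2 differences lay between -0.14 and 0.23 in PC3 cells and between -0.16 and 0.22 in HeyA8 cells. No host passed the test, and none had an unadjusted p under 0.05. The genes that passed were 0.231% in PC3 cells and 0% in HeyA8 cells, where edgeR gave 177 genes an unadjusted p under 0.05. Between 24 and 48 h no host passed either, with 0.0264% of genes called in PC3 cells and 0% in HeyA8 cells (879 at an unadjusted p under 0.05). edgeR gave an unadjusted p under 0.05 to EPB41L4A-AS1 in PC3 cells, where 13.4% of genes had one. In HeyA8 cells it gave one to SNHG1, SNHG12 and EPB41L4A-AS1, against 6.34% of genes. The changes with time were negative for all 10 hosts in HeyA8 cells (median -0.38), against 50.2% of genes. In PC3 cells 6 of 10 were negative (median -0.07), against 51.7%. The largest difference with time was that of SNHG12 in HeyA8 cells, where the log2 change over the 4 conditions was -1.08 and the adjusted p 0.724. In a fit to the HeyA8 mock and siNT1 libraries alone SNHG12 was called, at -0.57 with an adjusted p of 0.00019, among 12% of genes.

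**Figure D2:**
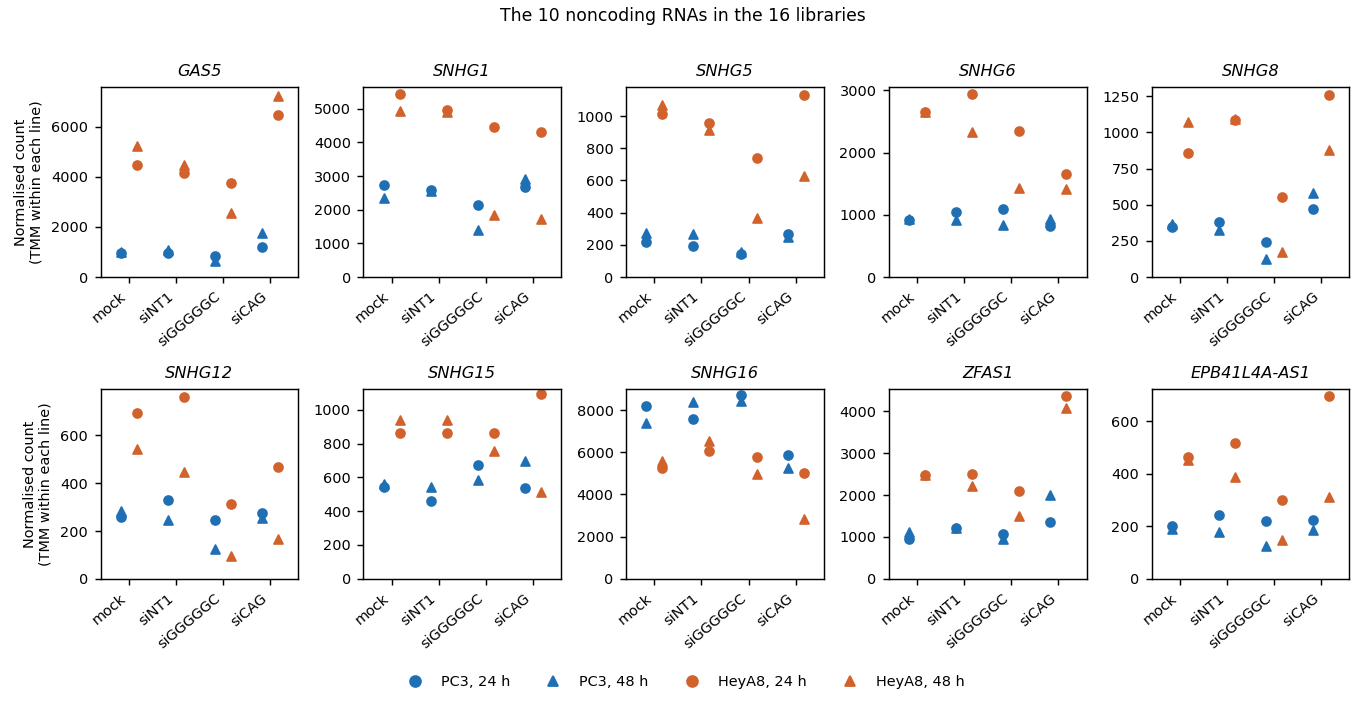
Normalised counts of each host in the 16 libraries, TMM-scaled within each line, with a linear axis from 0 for each gene. Blue marks PC3 and orange HeyA8, circles 24 h and triangles 48 h. The siGGGGGC library at 48 h is the lowest of the 8 for 6 hosts in each line. The share of all genes with their lowest count in that library was not computed.

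The question of the first siRNA comparison was how an siRNA with the GGGGGC seed changes these RNAs relative to the nontoxic control. After siGGGGGC most hosts had lower counts than after siNT1 in both lines, and the gap was wider at 48 h than at 24 h. No host passed the adjusted threshold in either line. The median log2 fold change over the 10 hosts was -0.40 in PC3 cells and -0.65 in HeyA8 cells, against 0.0029 and 0.0040 over all genes tested. Values below are normalised counts, given in the order mock, siNT1, siGGGGGC and siCAG, with 24 h before 48 h in each.

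SNHG8 lay furthest below the control in PC3 cells. Its counts there were 347.1 and 365.0, 377.6 and 327.8, 245.3 and 122.1, and 469.3 and 580.3. The HeyA8 counts were 857.4 and 1072, 1088 and 1094, 554.9 and 176.5, and 1256 and 880.8. The siGGGGGC libraries were the 2 lowest in both lines. The log2 fold change was -0.96 ± 0.31 in PC3 cells (adjusted p 0.0813) and -1.69 ± 0.47 in HeyA8 cells (adjusted p 0.348). DESeq2 called SNHG8 in both lines, among 18.9% of genes in PC3 and 2.29% in HeyA8 cells.

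SNHG12 holds 2 GCCCCC sites, the first of which is printed above. Its counts in PC3 cells were 257.0 and 285.5, 328.3 and 246.6, 244.3 and 123.1, and 274.8 and 253.5. Its HeyA8 counts were 694.9 and 543.5, 761.2 and 447.6, 314.3 and 94.22, and 468.4 and 164.8. Both siGGGGGC libraries lay below both siNT1 libraries in each line, by a narrow margin at 24 h in PC3 cells. The log2 fold change was -0.67 ± 0.28 in PC3 cells (adjusted p 0.148) and -1.72 ± 0.38 in HeyA8 cells (adjusted p 0.26). EPB41L4A-AS1, the other host with a site, had 202.0 and 188.7, 243.2 and 177.7, 218.3 and 124.2, and 223.5 and 184.2 in PC3 cells. In HeyA8 cells it had 462.3 and 453.9, 515.8 and 385.7, 299.8 and 147.8, and 694.2 and 311.8. Its siGGGGGC libraries overlapped those of siNT1 in PC3 cells (log2 fold change -0.32 ± 0.24, adjusted p 0.382) and not in HeyA8 cells (-1.07 ± 0.34, adjusted p 0.4). SNHG8, at -0.96 and -1.69, has no site in the transcript used. Whether a site goes with a lower count was not tested.

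GAS5 and SNHG1 are the hosts with most snoRNAs. GAS5 counts in PC3 cells were 964.1 and 981.0, 968.6 and 1100, 833.1 and 637.4, and 1218 and 1775. HeyA8 cells had 4469 and 5233, 4177 and 4489, 3749 and 2541, and 6456 and 7253. In both lines every siGGGGGC library lay below, and every siCAG library above, the other libraries. The siGGGGGC log2 fold change was -0.48 ± 0.23 (adjusted p 0.182) and -0.46 ± 0.26 (adjusted p 0.634). SNHG1 counts in PC3 cells were 2720 and 2350, 2582 and 2571, 2150 and 1403, and 2666 and 2912. Those in HeyA8 cells were 5436 and 4936, 4962 and 4907, 4450 and 1833, and 4322 and 1735. The SNHG1 log2 fold change after siGGGGGC was -0.55 ± 0.20 in PC3 cells (adjusted p 0.103) and -0.80 ± 0.39 in HeyA8 cells (adjusted p 0.575), and in HeyA8 cells nearly all of it came from the 48 h library.

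SNHG5 counts in PC3 cells were 219.0 and 274.9, 189.8 and 270.2, 146.2 and 155.2, and 266.1 and 248.6. HeyA8 cells had 1015 and 1067, 958.2 and 915.8, 738.3 and 366.0, and 1130 and 629.6. Both siGGGGGC libraries were below both siNT1 libraries in each line, with log2 fold changes of -0.60 ± 0.23 (adjusted p 0.118) and -0.83 ± 0.33 (adjusted p 0.502). ZFAS1, which is transcribed away from the 5′ end of ZNFX1, had 961.1 and 1115, 1204 and 1220, 1064 and 949.9, and 1368 and 2007 in PC3 cells. In HeyA8 cells it had 2489 and 2483, 2514 and 2213, 2096 and 1501, and 4363 and 4087. Its siGGGGGC libraries were again below both siNT1 libraries in each line, with smaller log2 fold changes of -0.26 ± 0.20 (adjusted p 0.392) and -0.40 ± 0.22 (adjusted p 0.613).

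SNHG6, SNHG15 and SNHG16 were the remaining hosts. SNHG6 counts in PC3 cells were 911.1 and 936.9, 1048 and 910.3, 1087 and 836.1, and 827.3 and 925.9. In HeyA8 cells the counts were 2655 and 2653, 2944 and 2328, 2344 and 1439, and 1657 and 1410. The SNHG6 libraries after siGGGGGC and siNT1 overlapped in both lines. SNHG15 counts in PC3 cells were 540.1 and 563.3, 457.6 and 543.5, 670.9 and 585.7, and 536.0 and 699.1. HeyA8 counts were 861.4 and 936.4, 862.6 and 936.4, 863.4 and 757.7, and 1091 and 514.4. Its siGGGGGC libraries were higher than those of siNT1 in PC3 cells and overlapped them in HeyA8 cells. SNHG16 counts in PC3 cells were 8192 and 7397, 7603 and 8383, 8709 and 8457, and 5850 and 5277. Those in HeyA8 cells were 5232 and 5592, 6077 and 6528, 5770 and 4985, and 5024 and 2838. SNHG16 was above both siNT1 libraries in PC3 cells and below both in HeyA8 cells after siGGGGGC. The log2 fold changes in PC3 cells were -0.03 ± 0.19 for SNHG6, 0.34 ± 0.20 for SNHG15 and 0.10 ± 0.14 for SNHG16. Those in HeyA8 cells were -0.50 ± 0.24, -0.16 ± 0.34 and -0.24 ± 0.28, and none of the 6 passed the threshold.

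Counted together, 0 of 10 hosts were called by edgeR in PC3 cells, where 9.67% of 15136 genes were called, and 4 had an unadjusted p under 0.05 (SNHG1, SNHG5, SNHG8 and SNHG12), as did 32.1% of genes. In HeyA8 cells 0 of 10 were called, as were 0% of 13872 genes, and 4 hosts had an unadjusted p under 0.05 (SNHG5, SNHG8, SNHG12 and EPB41L4A-AS1), as did 9.75% of genes (1352). Both siGGGGGC libraries were below both siNT1 libraries for 6 hosts in PC3 cells, against 28.7% of all genes, and for 8 in HeyA8 cells, against 25.4%. The HeyA8 result depended on the libraries fitted. When the 4 compared libraries were fitted alone, 5 hosts were called lower (SNHG1, SNHG5, SNHG8, SNHG12 and EPB41L4A-AS1), among 8.86% of genes, with an adjusted p of 5.12e-05 for SNHG8 and 8.98e-05 for SNHG12. In PC3 cells the same restriction called 0 hosts among 2.99% of genes, while leaving out the siGGGGGC library at 24 h called 4 (GAS5, SNHG1, SNHG8 and SNHG12) among 23.5%.

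**Figure D3:**
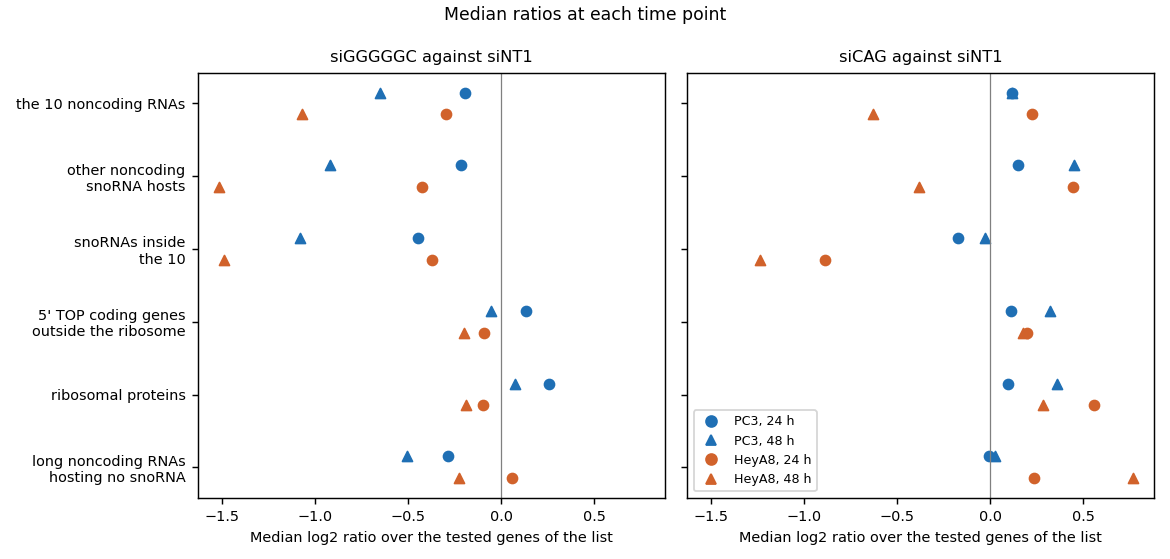
Median log2 ratio to siNT1 at each time point for the 10 hosts and 5 other gene groups, after siGGGGGC (left) and siCAG (right). Each point rests on 1 library per siRNA; blue is PC3, orange HeyA8, circles 24 h and triangles 48 h. After siGGGGGC the hosts lay at -0.30 at 24 h and -1.07 at 48 h in HeyA8 cells.

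At a single time point a ratio compares 1 library with 1 other and carries no error. The median log2 ratio of the hosts to siNT1 in PC3 cells was -0.20 at 24 h and -0.65 at 48 h, and that in HeyA8 cells was -0.30 and -1.07. At 48 h in HeyA8 cells all 10 hosts were below siNT1 and 5 of 10 had log2 ratios under -1, against 9.96% of all genes. In the fit to both time points 49.6% of all genes had a negative fold change in this comparison. In PC3 cells 0 of 10 hosts were under -1 at 24 h and 1 of 10 at 48 h, against 10.5% and 11.3% of all genes. In HeyA8 cells at 48 h SNHG8 was at -2.63 and SNHG12 at -2.24.

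The other noncoding snoRNA hosts also had negative medians. After siGGGGGC in PC3 cells, where 49.8% of all genes were negative, the median log2 fold change was -0.44, with 7 of 11 negative and 4 positive. Of these 2 were called lower, where 9.67% of all genes were called, SNHG4 at -1.16 (adjusted p 0.0306) and SNHG3 at -1.14 (adjusted p 0.0281). SNHG11 at 0.54 (adjusted p 0.153) and SNHG17 at 0.45 (adjusted p 0.154), chosen after their values were seen, lay on the other side. All calls in this PC3 comparison, those of SNHG4 and SNHG3 included, were lost when either siNT1 library was left out. In HeyA8 cells the median was -0.68, and all 11 had negative values, against 49.6% of all genes. None was called, as was 0% of all genes. SNHG3 and DANCR, chosen here after their values were seen, had 473.1 and 141.8 normalised counts in the HeyA8 siGGGGGC library at 48 h, against 3083 and 1067 after siNT1. Ribosomal protein genes had medians of 0.17 and -0.13 in PC3 and HeyA8 cells, with 1 of 75 called higher in PC3 cells (RPS7, 0.63). 5′ TOP coding genes outside the ribosome had 0.06 and -0.19, with the import receptor IPO7 (-0.96) and the poly(A)-binding protein PABPC1 (-0.69) called lower in PC3 cells. The coding genes that share the 5′ TOP were thus closer to 0 than the noncoding hosts, a difference between lists for which no test was made.

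Among 19 NMD factors tested, 4 were called lower and 2 higher after siGGGGGC in PC3 cells, where 9.67% of all genes were called. The PC3 calls in this paragraph were also lost when either siNT1 library was left out. Those called lower included UPF2 (-1.41), a core factor that joins UPF1 to the exon junction complex, and PNRC2 (-0.83), which links UPF1 to decapping. The 2 called higher, named after their values were seen, were the helicase UPF1 itself (0.68, adjusted p 0.0322) and EIF4A3 (0.68, adjusted p 0.0314), a core protein of the exon junction complex. Of 21 coding genes listed for their NMD-sensitive transcripts, 1 was higher (GABARAPL1, 1.59) and 2 lower (CDC42BPA, -1.25, and HNRNPDL, -0.89). Their counts are per gene and do not tell those transcripts apart from others. Among 42 genes of cytoplasmic and exosomal RNA decay the 5′ to 3′ exonuclease XRN1 was lower (-2.02) and EXOSC7 higher (0.82). Of 20 regulators of mTORC1 and TOP mRNAs 3 were lower, AKT1S1 (-1.75), RPS6KB2 (-1.31) and TIA1 (-0.91). Of 15 snoRNP proteins the assembly ATPases RUVBL2 (0.72) and RUVBL1 (0.55) were higher and the assembly factor ZNHIT6 (-0.74) lower. Among targets of the stress factor ATF4 4 of 24 were higher, led by DDIT4 (1.33), VLDLR (1.32) and WARS (0.75). In HeyA8 cells 0% of all genes were called after siGGGGGC, and so none of these 6 lists. Long noncoding RNAs that host no snoRNA had medians of -0.37 in PC3 cells, with 4 of 14 called lower (NEAT1 at -1.46, MALAT1 at -0.75 and HCG18 at -0.64 among them), and of 0.05 in HeyA8 cells.

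**Figure D4:**
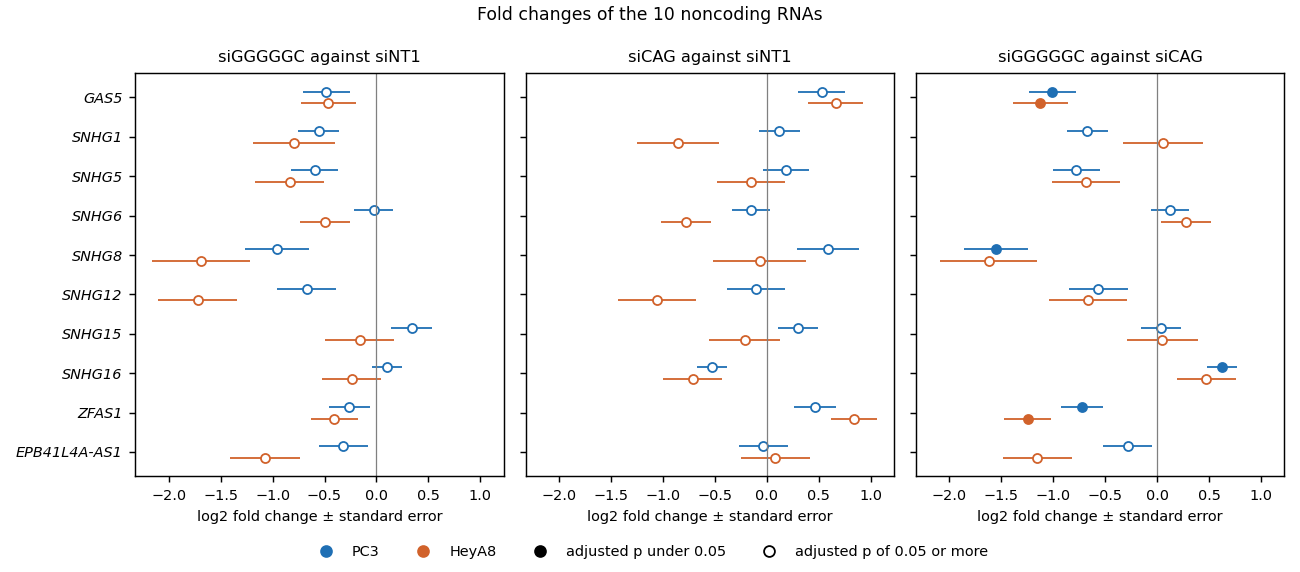
Log2 fold changes with their standard errors for the 10 hosts in PC3 (blue) and HeyA8 (orange) cells, in the 3 siRNA comparisons. Filled points have an adjusted p under 0.05: 4 hosts in PC3 and 2 in HeyA8 cells, all between siGGGGGC and siCAG.

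After siCAG the hosts differed in direction. GAS5 and ZFAS1 had higher counts than after siNT1 at both times in both lines, SNHG16 had lower counts in both lines, and the rest differed between the lines or time points. No host passed the adjusted threshold. The siCAG and siGGGGGC comparisons share the siNT1 libraries, so their values are set side by side and not correlated.

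In PC3 cells GAS5 had a log2 fold change of 0.53 ± 0.22 (adjusted p 0.364), ZFAS1 of 0.46 ± 0.20 (adjusted p 0.366) and SNHG8 of 0.59 ± 0.30 (adjusted p 0.436). SNHG16 had -0.53 ± 0.14 (adjusted p 0.174), and the other 6 lay between -0.15 and 0.30. With edgeR 0 hosts were called among 1.2% of genes, 3 had an unadjusted p under 0.05 (GAS5, SNHG16 and ZFAS1) against 13.5% of genes, and both siCAG libraries were above both siNT1 libraries for 4 hosts (GAS5, SNHG1, SNHG8 and ZFAS1), against 22.1% of genes. The 4 compared libraries alone called GAS5, SNHG8 and ZFAS1 higher and SNHG16 lower, among 16% of genes. The siCAG library at 48 h was the highest of the 8 PC3 libraries for 5 hosts, and the share of all genes highest there was not computed.

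In HeyA8 cells ZFAS1 had a log2 fold change of 0.84 ± 0.22 (adjusted p 0.0653) and GAS5 of 0.66 ± 0.26 (adjusted p 0.151). SNHG12 had -1.06 ± 0.38 (adjusted p 0.121), SNHG6 -0.78 ± 0.24 (adjusted p 0.0922) and SNHG16 -0.71 ± 0.29 (adjusted p 0.154). SNHG1 had -0.85 ± 0.39 (adjusted p 0.201), nearly all of it from the 48 h library. GAS5 and ZFAS1 were the 2 hosts whose siCAG libraries both exceeded both siNT1 libraries, against 28.2% of genes, and SNHG1, SNHG6 and SNHG16 the 3 whose siCAG libraries were both lower, against 27.4%. With edgeR 0 hosts were called among 7.81% of genes, and 5 had an unadjusted p under 0.05, against 29.5% of genes.

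The HeyA8 siCAG libraries, which stood apart above, differed for the hosts too. From 24 to 48 h the log2 ratio to siNT1 went from -0.20 to -1.50 for SNHG1, from -0.70 to -1.44 for SNHG12, from -0.27 to -1.20 for SNHG16 and from 0.34 to -0.86 for SNHG15. GAS5 was at 0.63 and 0.69, ZFAS1 at 0.79 and 0.88 and SNHG6 at -0.83 and -0.72, close at both times. Without the siCAG library at 24 h, 7 hosts were called (GAS5, SNHG1, SNHG6, SNHG12, SNHG15, SNHG16 and ZFAS1) among 31.5% of genes, and without that at 48 h, 2 were called (SNHG6 and ZFAS1) among 32.9%. SNHG6 and ZFAS1 were also the 2 called by DESeq2, among 19.2% of genes. The median of the hosts was -0.58 without the 24 h library and 0.04 without the 48 h library.

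In the same HeyA8 comparison 7.81% of all genes were called and 50.6% were negative. Ribosomal protein genes had a median of 0.41, with 71 of 75 positive and 1 called higher (RPS18, 0.77). Among 5′ TOP coding genes EEF1A1, the elongation factor that brings aminoacyl-tRNA to the ribosome, was higher (0.87), while the poly(A)-binding protein PABPC4 (-3.18), NAP1L1 (-1.98) and IPO7 (-1.59) were lower. ATF4 targets had a median of 0.99, with 7 of 24 called higher, led by DDIT4 (4.21), NUPR1 (2.91) and the cystine transporter SLC7A11 (2.15). NUPR1 was near the lower limit of counting, with 7.73 and 6.52 normalised counts after siNT1 and 103.1 and 24.8 after siCAG. SLC7A11 had 4366 and 2609 after mock treatment, 2457 and 1181 after siNT1 and 6035 and 9104 after siCAG. The snoRNP proteins NOP58 (-1.15), a core protein of box C/D particles, and NAF1 (-1.18), an assembly factor of box H/ACA particles, were lower. Of the splicing factors listed for their NMD-sensitive transcripts SRSF2 (-1.46), SRSF3 (-1.13) and TRA2B (-0.96) were lower. Their counts are per gene and do not tell those transcripts apart from others. Also lower were the NMD factor MAGOHB (-1.31), the cap-binding protein EIF4E (-1.83) and 3 decay genes, LSM5 (-2.07), DCP2 (-1.88) and EXOSC9 (-1.69). Long noncoding RNAs without snoRNAs had a median of 0.78, and OIP5-AS1 was called lower (-1.20). Some medians depended on the siCAG library left out, in fits that called 31.5% (without 24 h) and 32.9% (without 48 h) of all genes. Without that at 24 h the median of the ATF4 targets was -0.02, with 8 of 24 called higher and 6 lower, and without that at 48 h it was 1.53, with 20 higher and 2 lower. The ribosomal protein genes had 0.25 and 0.56, with 6 and 53 of 75 called higher, and the long noncoding RNAs 0.73 and 0.29. Each called gene named here kept its direction and its call in both fits except NUPR1, which had an adjusted p of 0.0823 without the 24 h library. In PC3 cells the medians of the same lists lay between -0.15 and 0.23. PABPC4 (-2.31) and the ATF4 targets GARS (-1.36) and PSAT1 (-0.96) were called lower there, among 1.2% of genes called.

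No host passed the test of a difference between the lines. As an interaction over all 16 libraries, PC3 minus HeyA8, the difference after siGGGGGC lay between -0.02 and 1.05, the latter for SNHG12 (SE 0.51, adjusted p 0.78), where 0% of genes were called and 1054 had an unadjusted p under 0.05. After siCAG it lay between -0.48 and 0.86, the latter for SNHG1 (adjusted p 0.457), where 0.636% of genes were called. Without the HeyA8 siCAG library at 24 h or at 48 h 0 hosts were called in this interaction, among 9.24% and 6.36% of genes. No host had an unadjusted p under 0.05 in either interaction.

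The direct comparison of the siRNAs, chosen after the values of the hosts were seen, separated GAS5 and ZFAS1 in both lines. In PC3 cells GAS5 was 2.01-fold lower after siGGGGGC than after siCAG (log2 difference -1.01 ± 0.23, adjusted p 0.0262), SNHG8 2.93-fold lower (-1.55 ± 0.31, adjusted p 0.0189) and ZFAS1 1.65-fold lower (-0.73 ± 0.20, adjusted p 0.0465). SNHG16 was 1.54-fold higher (0.63 ± 0.14, adjusted p 0.0272). These 4 calls stood among 15.9% of genes called. ZFAS1 was not called in PC3 cells with the compared libraries alone or without the term for time point. The host medians there were -0.67 and -0.59, against -0.62 in the main fit. In HeyA8 cells, given next, the compared libraries alone called neither GAS5 nor ZFAS1, with a host median of -0.68, against -0.67 in the main fit. In HeyA8 cells GAS5 was 2.18-fold lower (-1.13 ± 0.27, adjusted p 0.0369) and ZFAS1 2.37-fold lower (adjusted p 0.0189), among 15.4% of genes called, and SNHG8 had -1.62 ± 0.47 (adjusted p 0.0599).

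Both siGGGGGC libraries were below both siCAG libraries for 6 hosts in PC3 cells, against 25.9% of genes, and for 4 in HeyA8 cells, against 28%. Of the 11 other noncoding hosts SNHG3 (-1.55), DANCR (-1.17), SNHG4 (-1.10) and SNHG20 (-0.99) were called lower in PC3 cells and SNHG20 (-1.36) in HeyA8 cells. In HeyA8 cells 9 of 75 ribosomal protein genes were called lower. Over all genes 15.9% were called in PC3 cells (1106 of 15136 lower) and 15.4% in HeyA8 cells (1060 of 13872 lower). SNHG20 had adjusted p of 0.0711 and 0.159 without the HeyA8 siGGGGGC library at 24 or 48 h, and of 0.0038 and 0.0103 without that of siCAG. Of the ribosomal protein genes 0 were called without either siGGGGGC library, and 19 and 61 without the siCAG library at 24 or 48 h. The host calls depended on single libraries, while the called hosts kept their direction. With 1 library left out, the PC3 log2 difference of GAS5 lay between -1.35 and -0.71 and that of SNHG8 between -2.14 and -1.10. ZFAS1 lay between -0.99 and -0.46 and SNHG16 between 0.56 and 0.69. In HeyA8 cells GAS5 lay between -1.51 and -0.77 and ZFAS1 between -1.44 and -1.05. In PC3 cells 0 hosts were called without the siCAG library at 48 h, among 1.95% of genes, and 1 without the siGGGGGC library at 48 h, among 7.47%. In HeyA8 cells 0 were called without the siGGGGGC library at 24 or 48 h, among 2.46% and 0.483% of genes. Without the siCAG library at 24 or 48 h 4 were called, among 34.5% and 40.3%.

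The snoRNA genes inside the hosts offered a second readout, since they have rows of their own. The 10 hosts contain 34 snoRNA genes, 28 of box C/D with 43 to 126 bases and 6 of box H/ACA with 130 to 134 bases. Over all libraries these rows held 15127 reads, equal to 5.09% of the 297204 reads on the hosts, and SNORD80 in GAS5 had most, 3364. Such reads can come from the snoRNA or from unspliced host RNA that still has the intron, and these sources cannot be told apart. Many rows were near the lower limit of counting, and 22 of the 34 were tested in PC3 and 31 in HeyA8 cells.

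**Figure D5:**
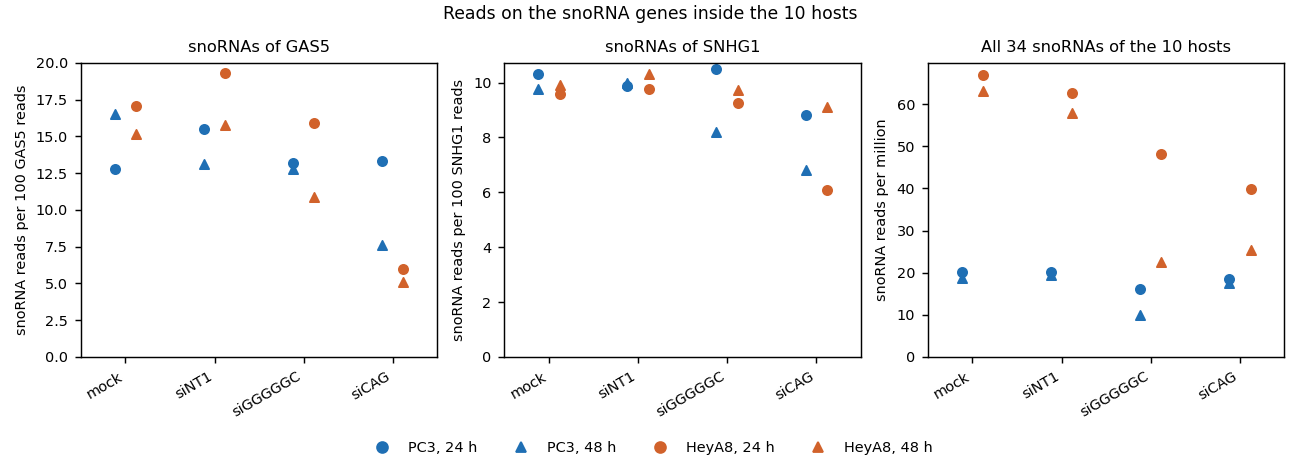
Reads on the snoRNA genes per 100 reads on GAS5 (left) and SNHG1 (middle), and the 34 snoRNA genes summed, in RPM (right), in the 16 libraries. Blue marks PC3 and orange HeyA8, circles 24 h and triangles 48 h. The HeyA8 siCAG libraries are at 6.01 and 5.08 for GAS5, below the other HeyA8 libraries.

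Reads on the snoRNA genes were lower after siGGGGGC in both lines. Summed over the 34 genes, PC3 cells had 20.2 and 18.8 RPM (reads scaled to library size) after mock treatment, 20.1 and 19.5 after siNT1, 16.1 and 9.91 after siGGGGGC and 18.4 and 17.4 after siCAG. HeyA8 cells had 67.0 and 63.1, 62.7 and 58.0, 48.3 and 22.5, and 39.9 and 25.3. The siGGGGGC libraries were the lowest 2 in PC3 cells, and siGGGGGC and siCAG gave the lowest 4 in HeyA8 cells. The median log2 fold change after siGGGGGC was -0.73 over 22 genes in PC3 cells, 21 of them negative, against 49.8% of all genes. In HeyA8 cells the median was -0.93 over 31, 29 of them negative, against 49.6% of all genes. Genes of the same host, such as the 10 in GAS5 and the 8 in SNHG1, are not independent readings. After siCAG the median was -0.25 in PC3 and -1.22 in HeyA8 cells. edgeR called 0 of these genes in each of the 4 comparisons, with 3 of 22 (siGGGGGC, PC3), 8 of 31 (siGGGGGC, HeyA8), 0 of 22 (siCAG, PC3) and 11 of 31 (siCAG, HeyA8) at an unadjusted p under 0.05. Over all genes these shares were 32.1%, 9.75%, 13.5% and 29.5%. Without the HeyA8 siCAG library at 24 or 48 h the siCAG median was -1.17 and -1.18, with 4 and 7 of 31 called lower, where 31.5% and 32.9% of all genes were called.

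At GAS5 host and snoRNA reads parted in HeyA8 cells after siCAG. The 10 snoRNA genes of GAS5 had 761 and 782 reads after mock treatment, 834 and 654 after siNT1, 616 and 280 after siGGGGGC and 395 and 371 after siCAG, whereas the GAS5 row, which counts exonic reads, was highest after siCAG. Per 100 GAS5 reads this gave 17.1 and 15.2, 19.3 and 15.8, 15.9 and 10.9, and 6.01 and 5.08. In PC3 cells the ratios were 12.8 and 16.5, 15.5 and 13.1, 13.2 and 12.8, and 13.3 and 7.59. The siCAG libraries of HeyA8 cells thus lay below the other 6, and in PC3 cells the siCAG library at 48 h was lowest. At SNHG1 the ratio in HeyA8 cells was 6.09 after siCAG at 24 h and between 9.10 and 10.3 in the other 7 libraries. SNHG5 had 0 snoRNA reads beside 1151 host reads in that library and 1.74 per 100 after siCAG at 48 h, against 3.25 to 5.93 in the other 6. SNHG6 had 0 and 0.845 per 100 after siCAG, against 1.03 to 2.61 in the other 6, and EPB41L4A-AS1 1.84 and 1.59, against 2.25 to 4.12. SNHG12, between 22.1 and 35.8 in all 8 HeyA8 libraries, had 24.7 and 31.3 after siCAG, and SNHG15 had 9.54 and 5.02, so the siCAG libraries of these 2 hosts were not both below the others. The remaining hosts, SNHG8, SNHG16 and ZFAS1, also overlapped the other libraries. The ratios were noticed in the data and were not tested.

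In the HeyA8 siCAG library at 24 h 9 of the 28 box C/D genes of the hosts had no read, against 0 or 1 in the other HeyA8 libraries, and the class had 30.6 RPM, against 53.9 after siNT1 at 24 h. The 6 box H/ACA genes had 9.35 RPM, against 8.82 after siNT1, but went both ways. SNORA9 had 104.1 normalised counts against 75.35 after siNT1 and SNORA16A 44.19 against 23.18, while SNORA61 had 28.48 against 85.0 and SNORA24 16.69 against 25.12. At 48 h both classes were lower after siCAG, with 22.1 against 49.8 RPM for box C/D and 3.27 against 8.25 for box H/ACA. At 24 h snoRNA genes outside the 10 hosts were lower as well, with 60.1 against 76.5 RPM over 251 box C/D genes and 63.9 against 92.3 over 102 box H/ACA genes. Box C/D genes are shorter than box H/ACA genes, and the part of gene length in this result was not tested. After siGGGGGC at 48 h in HeyA8 cells the box C/D genes of the hosts had 19.3 RPM against 49.8 after siNT1, and those elsewhere 53.8 against 74.6. The box H/ACA genes of the hosts were lower too, with 3.19 against 8.25, as were those elsewhere, with 54.0 against 92.3.

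Across the 8 libraries of a line, GAS5 and ZFAS1 had a Pearson's r of 0.92 (PC3) and 0.948 (HeyA8). The highest r between hosts was that of SNHG1 and SNHG8 in PC3 cells (0.953) and of SNHG5 and EPB41L4A-AS1 in HeyA8 cells (0.958). SNHG16 ran against them, with -0.839 to GAS5 and -0.883 to ZFAS1 (PC3), and with -0.505 and -0.539 (HeyA8). Over the 6 libraries without siCAG, GAS5 and ZFAS1 had 0.705 and 0.932, while SNHG16 had -0.411 and -0.391 to them (PC3) but 0.523 and 0.483 (HeyA8). These values describe 8 libraries that share 4 treatments and 2 time points. The genes outside the hosts whose pattern was most like the mean of the 10 hosts in both lines, among 10095 ranked, were THAP4 (mean r 0.978), SRM (0.97), PHKA2, MYBBP1A, RRP8, HYAL2, EMG1 and AGAP2-AS1 (0.96). Not all hosts followed this mean. In PC3 cells SNHG16 had an r of -0.538 to it and SNHG15 of 0.0841, and in HeyA8 cells ZFAS1 had 0.431, SNHG16 0.465 and GAS5 0.489. Without the siCAG libraries the mean r of the 8 genes lay between 0.963 and 0.979. The 8 had been picked on data that include these 6 libraries a line, so a high r there is no separate support. SRM, the spermidine synthase, had a log2 fold change after siGGGGGC of -0.87 in PC3 and -1.23 in HeyA8 cells, and none of the 8 was called in either line. The sign of such changes is tied to the choice, as the host mean was lowest after siGGGGGC at 48 h in each line. EMG1 and RRP8 are enzymes that methylate ribosomal RNA.

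Neighbouring genes on the opposite strand overlap the spans of 4 hosts, and the strand setting of the counting is not given in the sources used here. Whether the shared bases are exonic was not checked. The overlap was 41 bases between GAS5 and GAS5-AS1, which had 249 reads over all libraries against 46862 for GAS5. It was 119 bases between SNHG6 and MCMDC2, with 326 reads against 24901, 8 bases between SNHG12 and TRNAU1AP, with 8626 against 5507, and 42 bases between ZFAS1 and ZNFX1, with 56658 against 31701. The values of SNHG12 and ZFAS1 are the ones for which reads of a more abundant neighbour could matter, over 8 and 42 bases.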

How the data were processed

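The authors deposited a table of raw counts, whole numbers of reads per gene without normalization, for 26485 genes in 16 libraries, with 0 columns that belong to no sample. Total RNA was depleted of ribosomal RNA, reads were trimmed with Trimmomatic and aligned to hg38, and exonic reads were counted with HTSeq. The submitters' processing notes list STAR as the aligner. Counts were tested with edgeR 4.0.16 in R 4.3.3 (filterByExpr by condition, TMM, quasi-likelihood test with terms for siRNA and time, all 8 libraries of a line, or all 16 with time within line). The coefficient of variation left between libraries was 18.0% in PC3, 28.2% in HeyA8 and 23.5% over all 16. Calls were made at an adjusted p under 0.05 (Benjamini-Hochberg over all genes tested). Single time points used log2 ratios of normalised counts with 1 added. Sequences came from hg38 at the deposited gene starts and from GENCODE v44 transcripts, read with Python 3.11.15, and the sequence of SNHG6 is not reported here.

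The members, gene lists and tests were chosen with earlier results of these data known. All 10 hosts are named, with up to 3 called genes of each list by size of change, and the 8 genes most like the hosts (at least 100 normalised counts in both lines). Some genes that this rule or the marker lists hold are not reported here and stay in the counts and medians. Alternatives were DESeq2 1.42.0, RLE size factors, library totals, 2 other filters, no term for time point, mock as control, the compared libraries alone and each library left out. Fits without the siCAG libraries, time in mock and siNT1 alone, siGGGGGC against siCAG, the lists without 1 library, correlations without siCAG and levels per transcript length were added after the data were seen. The time point is the labelled block: 48 h minus 24 h differences correlated between conditions from -0.0209 to 0.717 in PC3 and from -0.0589 to 0.581 in HeyA8 cells.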

Additional observations from a re-analysis of the deposited data

Results flagged for a closer look

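A pair of hosts lay on opposite sides of siNT1 in the lines at both time points. SNHG16 after siGGGGGC had log2 ratios to siNT1 of 0.196 and 0.0127 in PC3 cells (24 and 48 h), while the HeyA8 ratios were -0.0746 and -0.389. The fitted difference, PC3 minus HeyA8, was 0.33 ± 0.34 (SE) with an adjusted p of 0.886 by edgeR. SNHG1 after siCAG had ratios of 0.0457 and 0.18 in PC3 cells, against HeyA8 ratios of -0.199 and -1.5, and the difference was 0.86 ± 0.49 with an adjusted p of 0.457. Neither difference passed the test.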

How the results depend on the processing

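Counts are hosts called, out of 10. For siGGGGGC against siNT1 in HeyA8 cells the count of 0 became 5 with the compared libraries alone and 2 with DESeq2 (SNHG8 and SNHG12). It became 1 without the siCAG libraries (SNHG12, adjusted p 0.0374 by edgeR), where 347 genes were called lower and 130 higher of 13549. In PC3 cells it became 1 with DESeq2 (SNHG8). For siCAG against siNT1 the count of 0 became 4 in PC3 cells with the compared libraries alone and 2 in HeyA8 cells with DESeq2. For siGGGGGC against siCAG in PC3 cells the count went from 4 to 2 with the compared libraries alone. That fit called 737 genes lower and 572 higher of 14732. It was 6 with library totals (1293 genes lower and 1033 higher of 15136) and 6 with DESeq2 (1627 lower and 1700 higher). In HeyA8 cells it went from 2 to 0 with the compared libraries alone (85 genes lower and 240 higher of 13560). DESeq2 gave 4 there (1753 genes lower and 1904 higher of 13872). For 48 h against 24 h in HeyA8 cells the mock and siNT1 libraries alone gave 1. With 1 library left out, counts ranged from 0 to 4 (siGGGGGC against siNT1, PC3), 0 to 7 (siCAG against siNT1, HeyA8), 4 to 9 (mock, PC3 against HeyA8), 0 to 6 (siGGGGGC against siCAG, PC3) and 0 to 4 (the same, HeyA8). In such a fit a condition holds 1 library, assumed to vary like the others. Without the replicate block for time point 8 hosts were called between the mock lines and 3 and 2 between siGGGGGC and siCAG in PC3 and HeyA8 cells, and 0 in each other comparison. Between the mock lines this fit called 3354 genes lower and 4456 higher of 15887. Between siGGGGGC and siCAG it called 789 lower and 935 higher of 15136 (PC3) and 1045 lower and 1075 higher of 13872 (HeyA8). Of the other counts under alternatives 147 kept within 1.5 times the main count. For the 39 host results with an unadjusted p under 0.05, 410 alternative values kept their side of the threshold, 34 passed it and 25 lost it, with no change of direction. Of all 130 host fold changes 47 changed sign with 1 library left out, such as SNHG15 after siCAG in HeyA8 cells (-0.82 to 0.28), and none of these was called with all libraries or among the 39. With 2 libraries a condition and no repeat of a time point, a host not called may still differ.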
